A study of Mus musculus with 6 samples.

Results

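A set of 49 genes was examined whose products carry newly made proteins into and out of the endoplasmic reticulum (ER). They were found in the deposited count table by their symbols, and each of them was present among the 39017 genes of the table. By role, 20 belong to protein targeting, the translocon and signal peptidase, 7 to the oligosaccharyltransferase, 9 to the COPII coat and its GTPases, 7 to the cargo and retrieval receptors that travel between ER and Golgi, and 6 to the COPI coat and its GTPase. The cells were induced germinal center B cells (iGBs), that is, splenic B cells of C57BL6/J mice activated on 40LB cells. The 40LB feeder is a mouse fibroblast line that displays CD40L and secretes BAFF. IL-4 was given at 5 ng/ml by the labels, although the methods of the study give a lower concentration, and cells were harvested after 3.5 days and separated from feeders with anti-H2K and magnetic beads. Control iGBs came from 3 Cg1-cre mice and Prmt1-null iGBs from 3 Cg1-cre Prmt1f/f mice, so that both genotypes carried the Cre and differed in the floxed alleles of Prmt1, an arginine methyltransferase. This Cre is expressed from the Cγ1 locus once B cells are activated, so deletion takes place in the activated cells and need not be complete. Each mouse gave 1 library, with 1 male and 2 females in each genotype. The ages of the mice were not in the labels.

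A secreted or membrane protein is recognised as it leaves the ribosome by the signal recognition particle (SRP), handed to the SRP receptor, and threaded through the SEC61 channel. Signal peptidase then removes the leader, and the oligosaccharyltransferase moves a preassembled sugar tree onto asparagine residues. Folded cargo leaves in COPII vesicles and is sorted by cargo receptors, while COPI vesicles return escaped ER proteins and receptors from the Golgi. These machines are held in every nucleated cell, and plasma cells are the classical example of a B lineage cell that enlarges them, since antibody is both translocated and glycosylated.

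Total counts on genes ran from 45343250 to 62774232 per library. Prmt1, the targeted gene, had 3924 to 4838 normalized counts in the Control libraries and 1477 to 1745 in the Prmt1-null libraries (log2 fold change −1.44 ± 0.095 SE, adjusted p = 1.11e-05). Normalized counts are counts scaled to one common library size. The 8 B cell markers were abundant in all 6 libraries, and the summed level of the list was 604185 to 686173 in Control and 666533 to 696649 in Prmt1-null iGBs. Of 12 fibroblast markers, which would report leftover feeders, Lum and Postn had 0 counts in all libraries. The summed level of the list was 1650 to 1853 in Control and 1769 to 2271 in Prmt1-null iGBs. The largest part of that sum was Thy1, with means of 728 and 740 normalized counts. T cell markers summed to 1302 to 1522 and 1396 to 1572, and erythroid markers to 327 to 537 and 392 to 427, in Control and Prmt1-null iGBs respectively. Most of the T cell sum was Lck, with means of 1323 and 1411 normalized counts.

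None of the 49 genes passed the test between the genotypes, but most of them sat slightly higher in Prmt1-null iGBs. The log2 fold change was above 0 for 38 of the 49 genes (77.6%), against 49.9% of the 18268 genes tested. The median over the 49 was 0.079, a fold of 1.06, against a median of −0.001 over all tested genes. The values ran from −0.19 for Arf4 to 0.26 for Sec13. To be called, a gene needed a mean above 100 normalized counts together with an adjusted p below 0.05. Of all genes tested 106 were called higher (0.580%) and 110 lower (0.602%). Among the 49 genes 0 were called in either direction by edgeR's quasi-likelihood test with the filter on low counts, and 0 by limma-voom. DESeq2 called 1 higher, Ddost (2.04%, against 1.82% of all genes called higher), and edgeR without the filter also called Ddost higher (2.04%, against 1.24%). At an unadjusted p under 0.05, 9 of the 49 genes were higher (18.4%, against 6.50% of all genes) and 1 was lower (2.04%, against 7.00%). The 9 became 4 without Prmt1-null replicate 2 (8.16%, against 4.77%) and 6 without Prmt1-null replicate 3 (12.2%, against 5.13%). The 9 were Srp72, Srpr, Ssr2, Spcs2, Ddost, Ostc, Sec13, Lman1 and Tmed10, and the 1 was Arf4.

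The libraries were also compared by the order of their normalized counts alone. All 3 Prmt1-null libraries lay above all 3 Control libraries for 12 of the 49 genes (24.5%), against 9.95% of all genes tested. The opposite order was found for 1 gene, Arf4 (2.04%, against 9.92% of all genes). The 12 were Srp72, Sec61a1, Ssr4, Spcs2, Rpn1, Ddost, Dad1, Ostc, Sec13, Lman1, Lman2 and Tmed10. The 49 genes were also set beside the 11454 tested genes whose mean count was at least that of the lowest of the 49. In that background 50.8% of genes were higher, the median log2 fold change was 0.002, and the libraries did not overlap for 11.7% of genes in each direction.

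**Figure D1:**
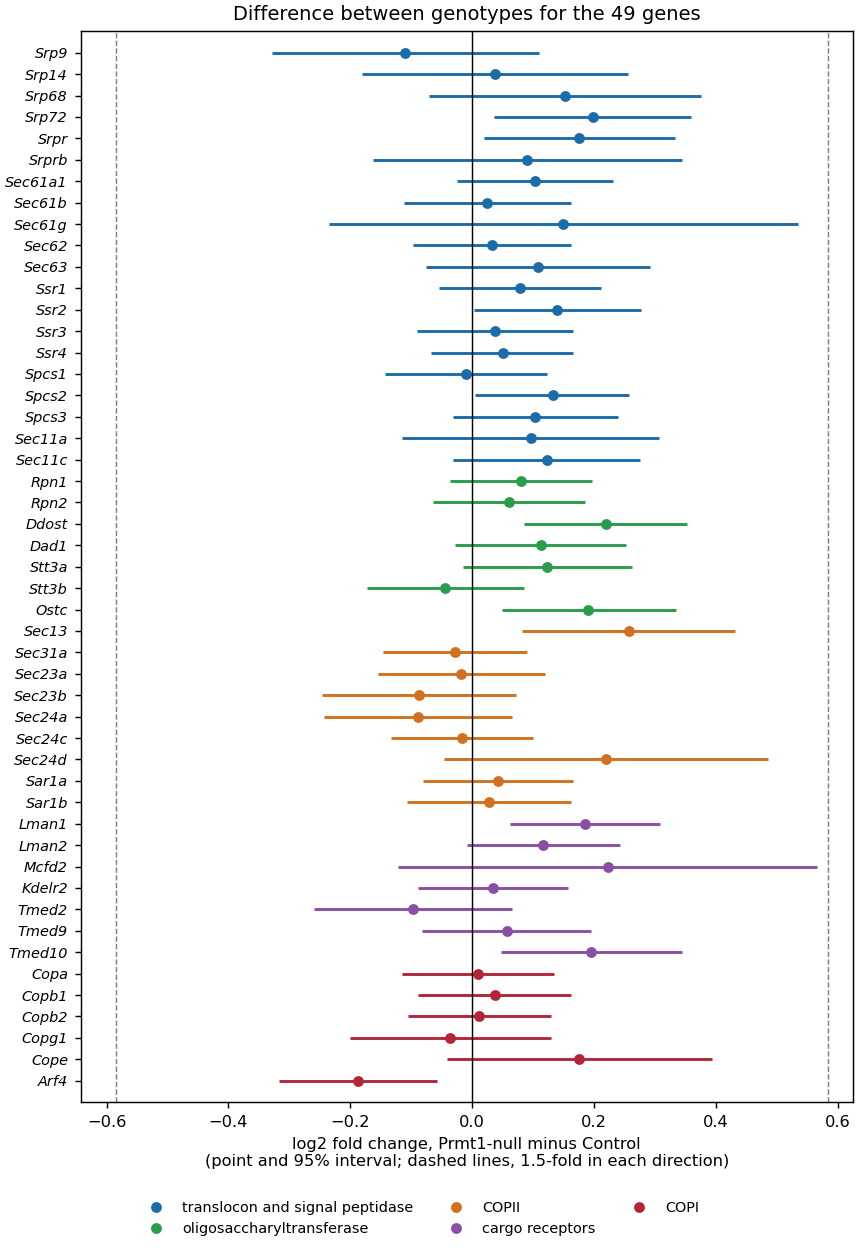
Log2 fold change of each of the 49 genes, Prmt1-null minus Control (horizontal axis), with its 95% interval, coloured by group. The dashed lines mark a 1.5-fold difference, and all 49 intervals lie between them, with 38 points to the right of 0.

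The shift was not shared evenly by the libraries. Averaged over the 49 genes, the log2 deviation from each gene's own mean was −0.050, −0.015 and −0.044 in Control replicates 1, 2 and 3, and −0.006, 0.054 and 0.060 in Prmt1-null replicates 1, 2 and 3. Prmt1-null replicate 3 held the highest value for 21 of the 49 genes and replicate 2 for 12, whereas replicate 1 held it for 4. Control replicates 1, 2 and 3 held the highest value for 6, 6 and 0 genes. The lowest value was in Prmt1-null replicate 1 for 9 genes, and in Control replicates 1, 2 and 3 for 14, 10 and 13. Without Prmt1-null replicate 1 the number of genes whose libraries did not overlap went from 12 to 24 higher, in a comparison of 2 against 3 libraries in which 2843 of all 18919 genes tested were in that order. It was 22 without Control replicate 1 (44.9%, against 15.2%) and 19 without Control replicate 2 (38.8%, against 14.8%). The median over the 49 genes lay between 0.050, without Control replicate 3, and 0.095, without Prmt1-null replicate 1.

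**Figure D2:**
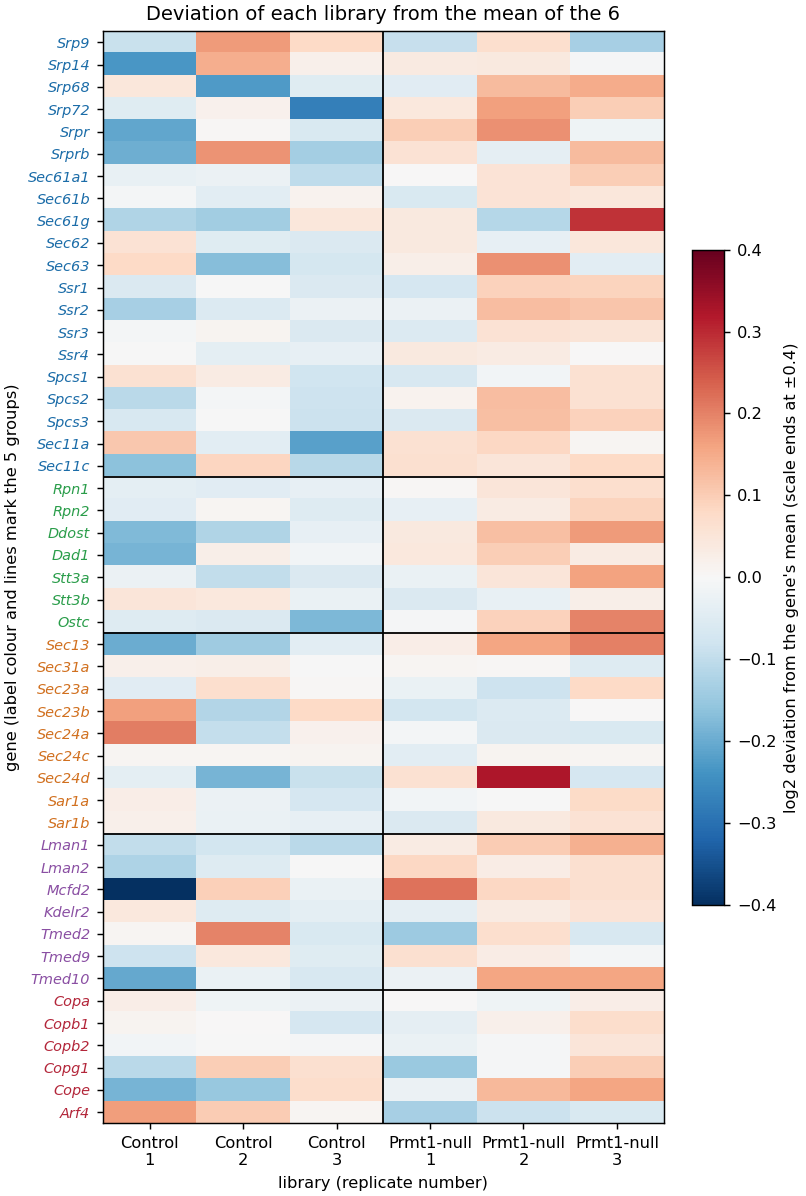
Log2 deviation of each library (columns) from the mean of the 6 libraries for each gene (rows, in the order of the 5 groups), with red above and blue below the mean. Prmt1-null replicates 2 and 3 are above the mean for 36 and 39 genes, and Prmt1-null replicate 1 for 23.

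The start regions of these genes were searched for short sequence motifs, because motifs with an ACGT core are found in elements bound by factors of the unfolded protein response such as XBP1 and ATF6. RefSeq windows from 250 bases before to 50 bases after the start (assembly GRCm38.p6) were at hand for 40 of the 49 genes, all but Srp68, Sec61a1, Ssr2, Spcs3, Sec11c, Ostc, Lman1, Kdelr2 and Tmed2. Both strands were searched. The letters CCACGT occurred in the windows of 18 of the 40 genes (45.0%), against 9.40% of the 27025 genes with windows and 12.7% of the 10254 of these that were tested. They were found in 13 of 19 genes of the COPII, cargo receptor and COPI groups (68.4%) and in 5 of 21 genes of the other groups (23.8%), the 5 being Srprb, Sec63, Ssr1, Ssr3 and Spcs1, with 0 of 6 in the oligosaccharyltransferase. The difference between these groups of genes was not tested. The longer UPRE core TGACGTGG, whose reverse complement begins with CCACGT, was present in 4 of the 40 genes, against 0.714% of all genes and 1.04% of tested genes, and all 4 encode coat subunits. The median GC content of the windows was 58.3% for these genes and 60.0% for the tested genes. Such matches are descriptions of letters, and binding was not measured here. Shown first are the 4 genes with the UPRE core and then 3 transport genes that were among the 2 with the smallest p in their groups, each on the strand that reads the motif forward, with CCACGT in capitals.

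Sec23a, chr12:59011992-59012021, plus strand: gtgccgcctctgCCACGTcaaaggggagga
Sec24d, chr3:123267460-123267489, minus strand: gggttgctagtgCCACGTcaggcgcccggg
Copb1, chr7:114254691-114254720, minus strand: ccccgcccccttCCACGTcagccaaggact
Copb2, chr9:98563712-98563741, plus strand: ttcccggaagttCCACGTcagtgggttggc
Sec13, chr6:113740666-113740695, minus strand: cgttttgagctgCCACGTccgaggccgtgg
Tmed10, chr12:85374710-85374739, plus strand: aaccgggagcacCCACGTgacgcgcctctg
Arf4, chr14:26638019-26638048, plus strand: cttcgctgggctCCACGTccggtagttcgc

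In Tmed10 the letters overlap an E-box (CACGTG), the site of Myc and of other basic helix-loop-helix factors. An E-box was present in 5 of the 40 genes (12.5%), namely Sec62, Ssr1, Sar1a, Mcfd2 and Tmed10, against 8.09% of all genes and 11.3% of tested genes. The full ER stress elements ERSE and ERSE-II had 0 matches in the 40 genes, and were rare in all genes (0.137% and 0.0444%). The oligosaccharyltransferase genes shared another motif, since the CCAAT box, the site of NF-Y, was present in 6 of 6 of them with a window, in 20 of all 40 genes, and in 41.1% of all genes. The match nearest the start of each of the 6 genes follows, again in the direction that reads the motif, with the box in capitals.

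Rpn1, chr6:88084455-88084484, plus strand: tggtgctgttggCCAATcagcggttgcgcc
Rpn2, chr2:157278992-157279021, plus strand: ccaaggcccggcCCAATcgggtcccggtgg
Ddost, chr4:138304664-138304693, plus strand: aagtgcgtttcgCCAATaaggtacagagac
Dad1, chr14:54253923-54253952, plus strand: ccacaccggcgggCCAATtggctccggcgt
Stt3a, chr9:36767640-36767669, minus strand: gacggaggctagCCAATgcggagcgggcag
Stt3b, chr9:115310596-115310625, plus strand: atggcggcgtgcgCCAATaggagcgcgagc

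The genes with and without each motif had small differences between the genotypes. The median log2 fold change was 0.040 for the 18 genes with CCACGT and 0.070 for the 22 without it, and 0.024 for the 4 genes with the UPRE core. It was 0.11 for the 20 genes with a CCAAT box and 0.035 for the 20 without one. These medians are given with no test, and the motif classes coincide in part with the functional groups.

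**Figure D3:**
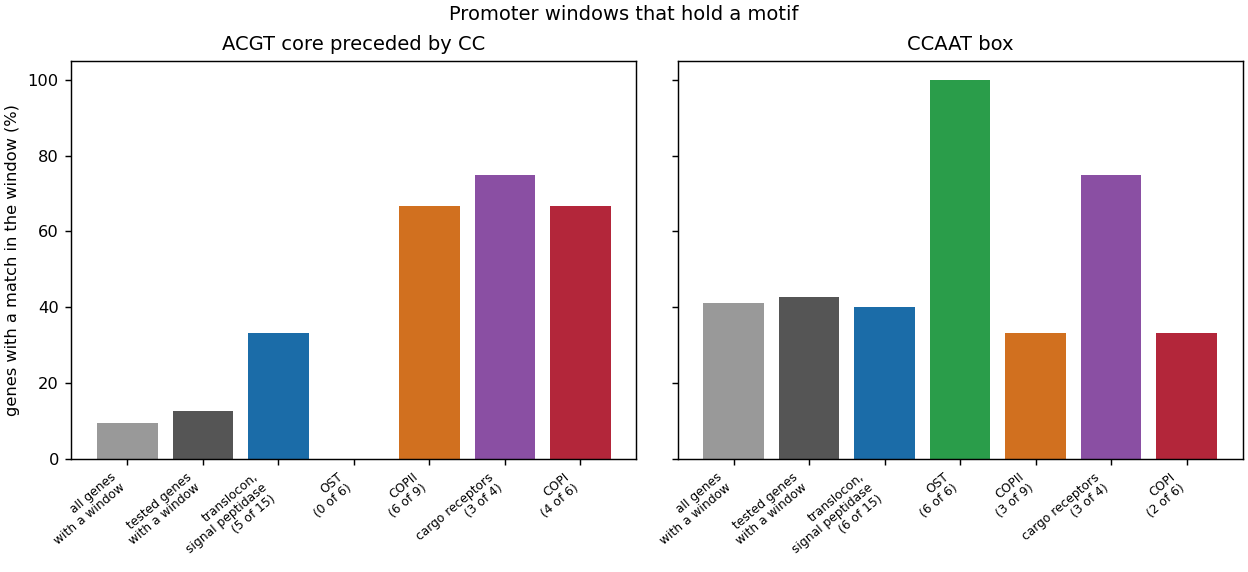
Percentage of genes (vertical axis) whose promoter window holds CCACGT (left) or a CCAAT box (right), for all genes, tested genes and the 5 groups. CCACGT was found in 6 of 9 COPII genes and 0 of 6 oligosaccharyltransferase (OST) genes, and the CCAAT box in 6 of 6 of the latter.

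In the targeting, translocon and signal peptidase group, 18 of 20 genes had a log2 fold change above 0, with a median of 0.10 and a range of −0.11 (Srp9) to 0.20 (Srp72). No gene of the group passed the test, 4 of 20 were higher at an unadjusted p under 0.05 (against 6.50% of all genes), and 4 had libraries that did not overlap (against 9.95%). Srp72 encodes a subunit of the SRP that binds its RNA together with SRP68. Srp72 (chr5:76974683-76999937) had 13647, 14307 and 11699 normalized counts in Control and 14535, 15837 and 15110 in Prmt1-null iGBs. The groups did not overlap, although Control replicate 2 was close to the lowest Prmt1-null library, and the log2 fold change was 0.20 ± 0.075 SE (adjusted p = 0.25). Srpr, the α subunit of the SRP receptor, had 3442, 3990 and 3811 in Control and 4263, 4517 and 3929 in Prmt1-null iGBs. Here Prmt1-null replicate 3 fell among the Control values, with a log2 fold change of 0.18 ± 0.073 SE (adjusted p = 0.30). Short exon stretches of Fam118b and Tirap lie opposite to Srpr. The strand setting of the counting was not given in the sources used here, so the counts of 17 of the 49 genes with exons opposite to those of another gene are uncertain to that extent, namely Srp9, Srpr, Sec61a1, Sec62, Sec63, Ssr2, Spcs1, Spcs3, Sec11a, Rpn1, Rpn2, Sec23a, Sec24c, Tmed10, Copa, Copg1 and Arf4.

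All 5 genes of the channel and its auxiliary factors were on the upper side, with a median of 0.10. Sec61a1, the pore-forming subunit, had means of 16388 ± 487 and 17605 ± 592 (SD, n = 3 each), a log2 fold change of 0.10 with a 95% interval of −0.025 to 0.23. Sec61b and the auxiliary factor Sec62 had log2 fold changes of 0.025 and 0.033, and both intervals lay within 1.2-fold. Sec63, another auxiliary factor, was at 0.11, and Sec61g, with few counts, at 0.15 with an interval of −0.24 to 0.54. All 4 genes of the translocon-associated protein (TRAP) complex, Ssr1 to Ssr4, were on the upper side, between 0.037 and 0.14. Among the signal peptidase genes the non-catalytic subunits were Spcs1 (−0.010), Spcs2 (0.13) and Spcs3 (0.10). A processed copy with its own row, Spcs2-ps, had 879 to 1200 normalized counts, so reads of Spcs2 may be divided between the rows.

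Signal peptidase has alternative catalytic subunits, encoded by Sec11a and Sec11c. Sec11a had 1624, 1464 and 1299 normalized counts in Control and 1575, 1598 and 1516 in Prmt1-null iGBs, with overlapping groups. Sec11c had 3232, 3839 and 3349 in Control and 3781, 3743 and 3829 in Prmt1-null iGBs, where Control replicate 2 was the highest of the 6 libraries. Per exon length, the ratio of Sec11c to Sec11a was 1.62 ± 0.24 in Control and 1.64 ± 0.063 in Prmt1-null iGBs (SD, n = 3 each; exact permutation test, two-sided, p = 1.0). Sec11a shares some exon sequence with Nmb on the same strand.

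Of the 7 oligosaccharyltransferase genes, 6 were on the upper side with a group median of 0.11 (0.070 without Prmt1-null replicate 3), and 4 (Rpn1, Ddost, Dad1 and Ostc) had libraries that did not overlap. This was the largest share of non-overlapping genes among the 5 groups (57.1%, against 9.95% of all genes in this direction), in a group of few genes. Ddost, a non-catalytic subunit held by both forms of the enzyme, had the smallest p of the 49 genes. Its normalized counts were 6619, 6872 and 7313 in Control and 7675, 8132 and 8417 in Prmt1-null iGBs. All Prmt1-null libraries were higher, and the mean differed by 16.4% with a 95% interval of 1.06-fold to 1.28-fold (log2 fold change 0.22 ± 0.062 SE, adjusted p = 0.11). Its adjusted p was 0.027 with DESeq2 and 0.042 in edgeR without the filter on low counts, so the call depended on the method.

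Ostc, the subunit that joins the STT3A form of the enzyme to the translocon, had 6431, 6405 and 5884 normalized counts in Control and 6636, 7092 and 7648 in Prmt1-null iGBs. The groups did not overlap, and Prmt1-null replicate 1 was the nearest to Control (log2 fold change 0.19 ± 0.066 SE, adjusted p = 0.20). Rpn1, a ribophorin, had 6569 ± 27 in Control and 6942 ± 157 in Prmt1-null iGBs, and Dad1, a small subunit, had 4985 ± 383 and 5391 ± 136. Neither difference passed the test (log2 fold changes of 0.080 and 0.11).

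The enzyme has alternative catalytic subunits. STT3A acts on proteins as they enter the ER, and STT3B on sites that were skipped. Stt3a had 16789, 15952 and 16408 normalized counts in Control and 16763, 17651 and 19110 in Prmt1-null iGBs. Stt3b had 32860, 32652 and 31198 in Control and 30476, 31114 and 32243 in Prmt1-null iGBs. Stt3a thus leaned up and Stt3b down (log2 fold changes of 0.12 and −0.044), each with overlapping groups. Per exon length, the ratio of Stt3b to Stt3a was 4.15, 4.34 and 4.03 in Control and 3.85, 3.74 and 3.58 in Prmt1-null iGBs, with no overlap. The difference of the log2 ratio was −0.17, with an exact two-sided permutation p of 0.10, the smallest that 3 against 3 libraries allow, and 0.40 after adjustment over the 4 pairs of alternative subunits examined.

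Of the 9 COPII genes, 4 had a log2 fold change above 0, and their difference from the other groups was not tested. The median was −0.017, and it turned to 0.012, 0.005 and 0.020 without Control replicate 2, Prmt1-null replicate 1 and Prmt1-null replicate 2. Sec13, a subunit of the outer coat that is also part of the nuclear pore, had the largest difference of the 49 genes. Its normalized counts were 1838, 1910 and 2049 in Control and 2149, 2354 and 2426 in Prmt1-null iGBs, with no overlap (log2 fold change 0.26 ± 0.081 SE, adjusted p = 0.16). Its partner in the outer coat, Sec31a, had 5365 ± 49 and 5262 ± 122, a log2 fold change of −0.028 with an interval of −0.15 to 0.090. The intervals of the partners overlapped between 0.082 and 0.090, and the difference between the genes was not tested.

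Sec24d, a cargo-binding subunit of the inner coat, had 738.7, 666.4 and 712.9 normalized counts in Control and 791.8, 949.5 and 724.1 in Prmt1-null iGBs. Prmt1-null replicate 3 fell among the Control values (log2 fold change 0.22 ± 0.12 SE, adjusted p = 0.47). The related Sec24a and Sec24c were at −0.088 and −0.016. Sec23a and Sec23b encode alternative forms of the subunit that activates the GTPase of the coat. Sec23a had 3907, 4221 and 4043 in Control and 3959, 3808 and 4260 in Prmt1-null iGBs. Sec23b had 4019, 3310 and 3788 in Control and 3413, 3453 and 3592 in Prmt1-null iGBs. Both overlapped between the genotypes. Per exon length, the ratio of Sec23b to Sec23a was 0.70 ± 0.095 and 0.67 ± 0.025 (exact permutation test, p = 0.60, where 0.10 was the smallest possible).

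The GTPases that start the coat, Sar1a and Sar1b, were close to level. Sar1a had 7345, 7095 and 6873 normalized counts in Control and 7148, 7205 and 7591 in Prmt1-null iGBs. Sar1b had 3506, 3397 and 3385 in Control and 3325, 3558 and 3602 in Prmt1-null iGBs. In both genes the groups overlapped, with 95% intervals of −0.081 to 0.17 and −0.11 to 0.16 on the log2 scale. Per exon length, the ratio of Sar1b to Sar1a was 1.44 ± 0.025 in Control and 1.42 ± 0.044 in Prmt1-null iGBs (exact permutation test, p = 0.60, where 0.10 was the smallest possible). Sar1b and Sec24a, both COPII genes, start 52 bases apart on chromosome 11 in opposite directions, and their log2 fold changes were 0.028 and −0.088.

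Among the cargo and retrieval receptors 6 of 7 genes were on the upper side, with a median of 0.12. Lman1 (ERGIC-53), a lectin that carries glycoproteins out of the ER with its partner Mcfd2, had 4488, 4564 and 4457 normalized counts in Control and 4915, 5148 and 5301 in Prmt1-null iGBs. The Control libraries lay close together and all Prmt1-null libraries lay above them (log2 fold change 0.19 ± 0.058 SE, adjusted p = 0.15). Tmed10, a p24 family receptor, had 9192, 10383 and 10131 in Control and 10421, 11807 and 11809 in Prmt1-null iGBs. Its groups did not overlap, but Prmt1-null replicate 1 was only just above Control replicate 2 (log2 fold change 0.20 ± 0.070 SE, adjusted p = 0.21). Lman2, another lectin, also did not overlap (0.12), whereas Mcfd2, with few counts, spread from 260 to 408 (0.22, interval −0.12 to 0.57). Tmed2, which works in a complex with Tmed10, was the 1 gene of the group on the lower side (−0.097, with overlapping groups). Kdelr2, which returns ER chaperones bearing a KDEL tail, was at 0.035 with an interval of −0.088 to 0.16.

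Most of the COPI coat was level between the genotypes. The log2 fold changes of Copa, Copb1, Copb2 and Copg1 ran from −0.036 to 0.037. Cope had 1248, 1278 and 1493 normalized counts in Control and 1398, 1555 and 1586 in Prmt1-null iGBs, where Control replicate 3 overlapped the Prmt1-null values (log2 fold change 0.18 ± 0.10 SE, adjusted p = 0.49). Arf4, a small GTPase of the ARF family that acts with COPI at the early Golgi, was the only one of the 49 genes with all Prmt1-null libraries below all Control libraries. It had 8268, 7895 and 7402 in Control and 6711, 6937 and 7045 in Prmt1-null iGBs, 12.2% lower in the mean (log2 fold change −0.19 ± 0.060 SE, adjusted p = 0.17). Exons of Arf4os and Pde12 overlap Arf4 on the opposite strand.

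**Figure D4:**
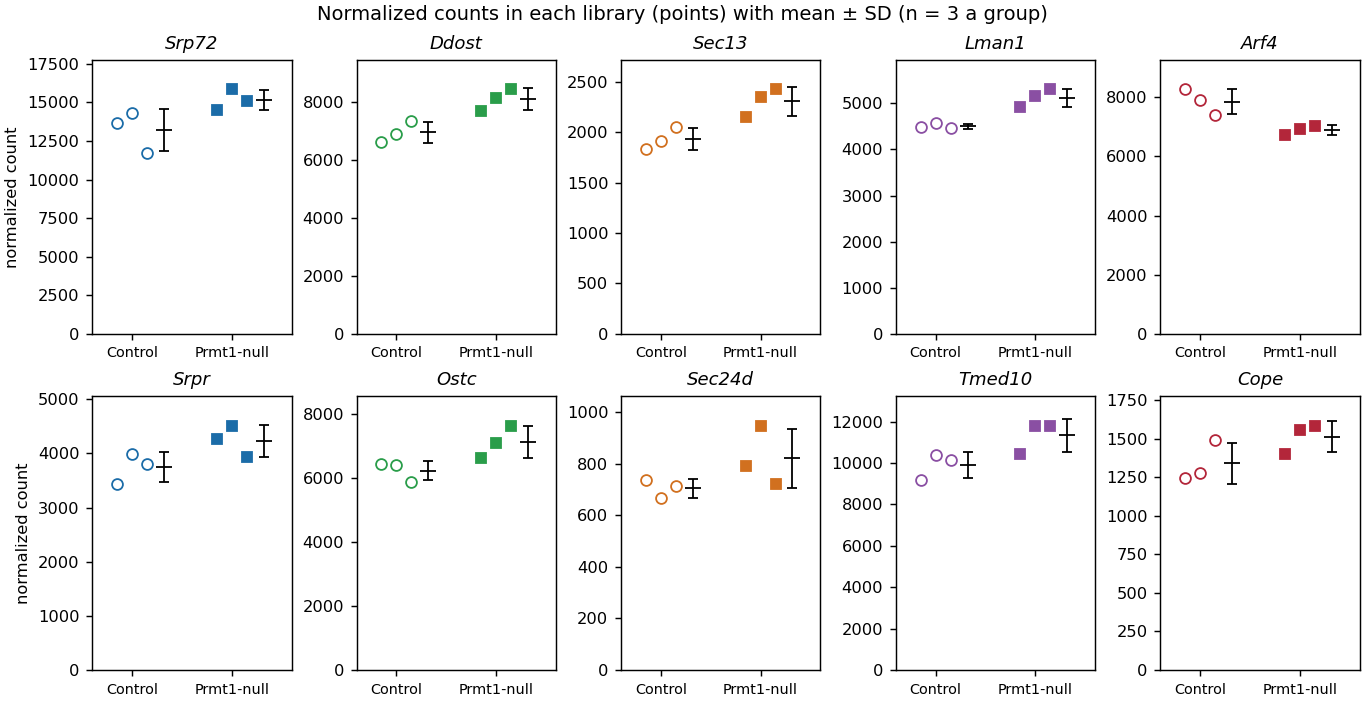
Normalized counts (vertical axes, starting at 0) of the 2 genes with the smallest p in each group, with 1 point per library and the mean ± SD (n = 3). Srp72, Ddost, Ostc, Sec13, Lman1 and Tmed10 are higher without overlap in Prmt1-null iGBs, Arf4 is lower without overlap, and Srpr, Sec24d and Cope overlap.

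How large a difference these libraries could have hidden is given by the 95% intervals. The interval included 0 for 39 of the 49 genes. It lay within 1.2-fold in either direction for 30 genes, within 1.3-fold for 44 and within 1.5-fold for all 49. The 5 genes whose interval reached past 1.3-fold were Sec24d, Sec13, Cope, Sec61g and Mcfd2. The genes were measured with more precision than most, with a median SE of 0.064 on the log2 scale against 0.14 over all tested genes. Their mean normalized counts ran from 218 (Sec61g) to 31757 (Stt3b). The difference between genotypes was also compared between male and female mice, but each genotype had 1 male, so that the difference in males had no replicate spread of its own and the lone male libraries were assumed to vary like the female ones. Under that assumption 0 of the 49 genes had an adjusted p below 0.05 in edgeR's quasi-likelihood test (smallest adjusted p = 0.58), and 1 gene on each side, Copg1 and Sec63, had an unadjusted p under 0.05 (2.04%, against 4.43% and 3.65% of all genes). Nothing is read from this about whether the sexes differed.

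Levels differed far more between the genes than between the genotypes. Levels are given as CPM (counts scaled to library size) per kilobase of exon, with the exon length taken over all annotated isoforms, which lowers the level of genes with long unused exons. Stt3b was the highest of the 49 genes at 138 ± 3.9 in Control (SD, n = 3), and did not overlap the next gene. Ssr3, Kdelr2, Spcs1 and Ddost followed at 63.0, 61.9, 60.0 and 59.0, each overlapping its neighbour in the order. Copa (51.4), Sar1b (49.3), Sec61b (47.2) and Sec61a1 (43.9) came next together with Tmed2 and Spcs3. At the low end were Srprb at 4.17, Mcfd2 at 2.08, Sec24d at 2.01 and Sec61g at 1.51, of which Mcfd2 and Sec24d overlapped. Srprb shares exon sequence with Gm20425 on the same strand, so that its level is uncertain. Subunits held in equal number by one machine did not have equal levels. Sec61g, the small γ subunit of the channel, was far below Sec61a1 and Sec61b, and Srp9, at 4.66, was below its partner Srp14, at 23.4. By the methods of the study, alignments to at most 2 places were kept in the counting, and whether reads of small genes with copies elsewhere were lost was not tested.

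**Figure D5:**
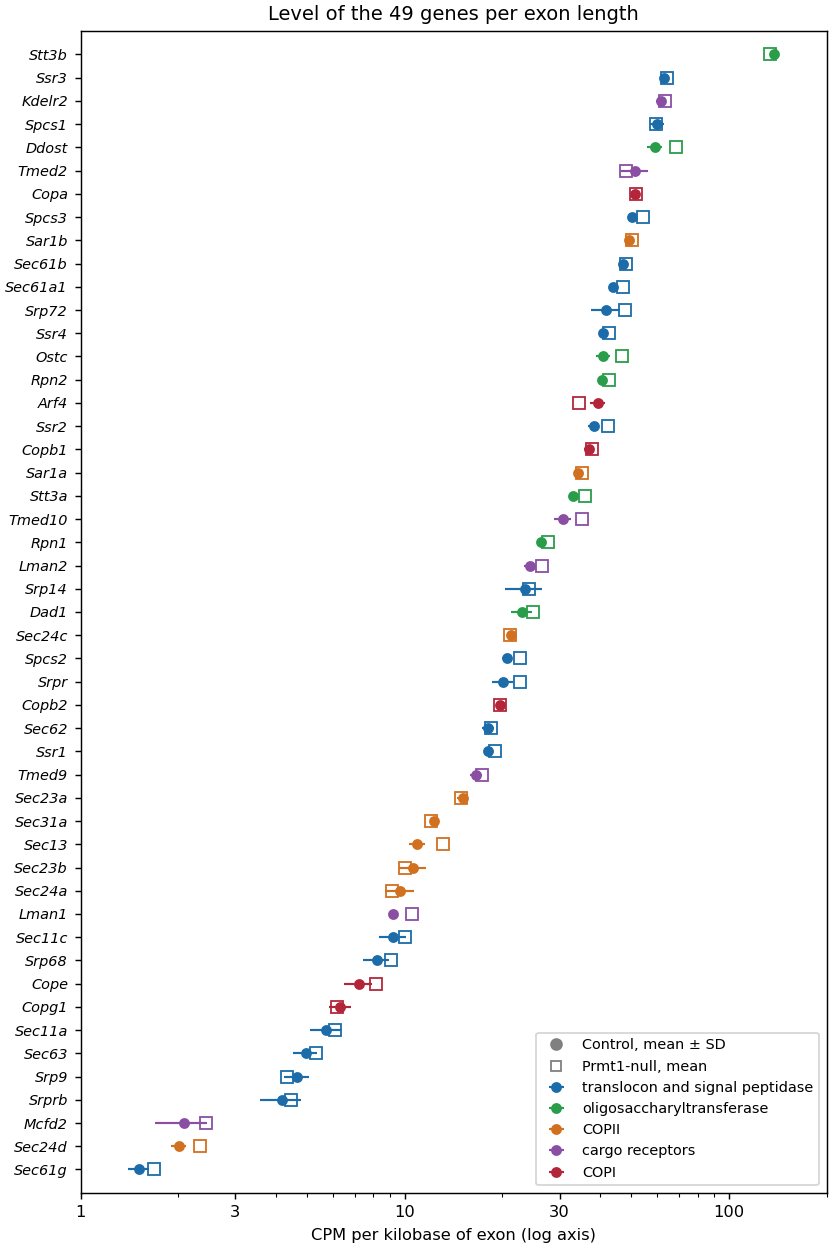
Level of the 49 genes in CPM per kilobase of exon (log axis), ordered by the Control mean. Filled points are Control means with SD and open squares Prmt1-null means, which stay close to the Control means from Stt3b (138 and 134) to Sec61g (1.51 and 1.68).

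The other genes of the same pathways were read from 11 lists of neighbouring steps. Of 141 further genes tested, 84 had a log2 fold change above 0 (59.6%), the median was 0.034, and 0 were called by edgeR with the filter on low counts or by limma-voom, with 14 higher and 8 lower at an unadjusted p under 0.05 in edgeR (9.93% and 5.67%, against 6.50% and 7.00% of all genes). DESeq2 called 5 higher and 4 lower (Uggt1, Alg2, Preb, Calr, Slc35a3, Copg2, Vamp4, Arfgap2 and Arf6), where it called 1.82% of all genes higher and 2.27% lower. edgeR without the filter called 4 higher and 2 lower (Asna1, Calr, Preb, Arfgap2, Slc35a3 and Vamp4), against 1.24% and 1.38% of all genes. Without Control replicate 3 edgeR called Asna1 and Vamp4, 1 in each direction, against 0.896% of all genes in each direction. Their libraries did not overlap for 24 genes higher (17.0%) and 11 lower (7.80%), against 9.95% and 9.92% of all genes. The list for glycan trimming and quality control in the ER leaned most, with 6 of 7 genes on the upper side, a median of 0.16, and a summed level of 154823 to 161681 in Control and 166504 to 185275 in Prmt1-null iGBs. Much of that sum was Calr, a lectin chaperone, with means of 78325 and 91665 (0.23 ± 0.065 SE, adjusted p = 0.12, named after its values were seen). The gene with the smallest p was Uggt1, the folding sensor that re-glucosylates misfolded glycoproteins (0.21 ± 0.057 SE, adjusted p = 0.11). Synthesis of the lipid-linked sugar had 17 of 23 genes on the upper side, led by the mannosyltransferase Alg2 (0.28, adjusted p = 0.16), and the ER membrane complex 6 of 9, led by Emc9 (0.21, adjusted p = 0.26).

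Lists without such a lean were supply of the N-acetylglucosamine and mannose donors (5 of 10, led by Slc35a3 at −0.24, adjusted p = 0.13), other COPII and ER exit site genes (11 of 22), other cargo receptors (10 of 17, led by Ergic1 at 0.14, adjusted p = 0.26), later Golgi transport (8 of 16) and other targeting genes (4 of 9, led by Sec61a2 at 0.27, adjusted p = 0.50). Within the COPII list Preb (SEC12), which loads GTP onto SAR1, had 1564, 1840 and 1670 normalized counts in Control and 2175, 2097 and 2099 in Prmt1-null iGBs. It did not overlap (0.33 ± 0.085 SE) and its adjusted p was 0.085. Vamp4, a SNARE of the late Golgi, was lower without overlap (−0.31 ± 0.083 SE, adjusted p = 0.099). Copg2, the alternative form of Copg1, was also lower without overlap (−0.25 ± 0.074 SE, adjusted p = 0.13), within a list of other COPI and ARF genes that had 12 of 16 on the upper side. The list of other oligosaccharyltransferase genes also held Mlec (−0.091), which does not encode a subunit of the enzyme. It had 1 of 6 genes on the upper side, Tusc3 (0.19, adjusted p = 0.48), in contrast to the 6 of 7 above. This contrast was not tested. Insertion of tail-anchored proteins had 4 of 6 tested genes on the upper side, led by Asna1 (0.32, adjusted p = 0.20, but 0.024 without the filter on low counts and 0.017 without Control replicate 3).

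Of the 7 unfolded protein response factors 5 were on the upper side, with a median of 0.11, and Atf6 (−0.025) and Ddit3 (−0.14) were lower. The libraries did not overlap for 2 of them, Xbp1 and Atf4 (28.6%, against 9.95% of all genes). Atf4 was at 0.23 ± 0.061 SE (adjusted p = 0.087, and 0.0058 to 0.15 under the alternatives with all libraries). Xbp1, whose product directs many secretory genes in plasma cells, had the smallest p of the 7 factors. It had 18895, 18433 and 18992 normalized counts in Control and 20852, 24471 and 23630 in Prmt1-null iGBs (0.29 ± 0.068 SE, adjusted p = 0.057, against 0.031 with limma-voom, 0.00104 with DESeq2, 0.00098 without the filter on low counts, 0.042 with sex as a covariate, 0.095 with the replicate block and 0.060 to 0.29 with a library left out). A link between Xbp1 and the 49 genes was not tested. Of the 8 plasma cell markers tested, Xbp1 among them, 7 were on the upper side. The lower one was Igj (−0.090, with overlapping groups). The summed level of the list was 75752 to 81530 in Control and 85770 to 91665 in Prmt1-null iGBs. Most of that sum was Irf4 (means 27160 and 30386) and Xbp1 (means 18773 and 22985). The libraries did not overlap for 3 markers, Xbp1, Derl3 and Slamf7 (37.5%, against 9.95% of all genes). They overlapped for Sdc1, Prdm1, Irf4 and Mzb1. Derl3, an ER-associated degradation factor, was the 1 marker of the list called (12.5%, against 0.580% of all genes called higher). Its log2 fold change was 0.59 ± 0.10 SE (adjusted p = 0.017, with 0.055, 0.094 and 0.081 when Control replicate 2, Prmt1-null replicate 2 or Prmt1-null replicate 3 was left out). Tnfrsf17 had 0 counts in 4 of the libraries and at most 3.78 normalized counts in the others. In bulk libraries a larger number of cells of one kind and more RNA per cell cannot be told apart. Of the fibroblast markers, 9 of 10 tested were on the upper side with a median log2 fold change of 0.25, and 0 were called. The libraries did not overlap for 2 of these 10, Col1a1 (0.44, adjusted p = 0.17) and Sparc (0.64, adjusted p = 0.36), both higher. Among all genes tested, 9.95% were in that order. Of the 5 myeloid markers tested Emr1 was called higher (0.73 ± 0.15 SE, adjusted p = 0.032, and between 0.073 and 0.14 when any library but Control replicate 3 was left out), with Cd14 at or near 0 and summed levels of 2090 to 2380 and 2208 to 2521, most of which was Cd68 (means 1606 and 1534). The part of these markers in the small shift of the 49 genes was not tested.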

How the data were processed

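RNA-seq of 6 libraries was analysed, and groups, replicate numbers and sexes were taken from the labels. The libraries were stranded and depleted of rRNA. Read trimming (Trimmomatic 0.32), alignment to mm10 (STAR 2.3.0e) and counting on exons (featureCounts 1.4.4) were done by the authors, as given in the submitters' processing notes and the methods of the study. The table they deposited holds raw counts for each gene, without normalization.

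The genotypes were compared with edgeR 4.0.16 in R 4.3.3 (TMM, filterByExpr with a minimum count of 10, quasi-likelihood test, Benjamini-Hochberg adjustment over all 18268 genes tested), with the 398 chromosome Y genes left out. Called genes had over 100 normalized counts in the mean and an adjusted p below 0.05. Intervals of 95% used 13.7 degrees of freedom. Exon lengths and coordinates came from GENCODE M21 (mm10), which matched 37693 genes by ID and 803 by symbol. Sequences came from RefSeq (GRCm38.p6). Alternatives were DESeq2 1.42.0, limma-voom 3.58.1, other size factors, no filter, chromosome Y genes kept, a sex covariate, a replicate block, each library left out and, for counts of calls, no minimum mean count. Methods were tested on simulated data. Replicates differed by more than counting noise.

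The 49 genes and all lists were chosen with earlier results of these data known. Values in every library were given for the 2 genes with the smallest p in each group and for 4 pairs of alternative subunits. From each other list the called genes, or else the gene with the smallest p, were named. Motifs and other examples were chosen after values had been seen. Intervals cover the spread between these mice, and 3 counts, the smallest number taken as detected, equal 2.63 to 3.64 normalized counts, for counting error only.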

Additional observations from a re-analysis of the deposited data

How the results depend on the processing

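Under 7 alternatives with all libraries, 0 of the 49 genes changed direction and 38 stayed above 0, and no log2 fold change moved by more than 0.015. The number of genes called in the whole table, 216 in edgeR, was 746 with DESeq2 and 675 without the filter on low counts. In both, 1 of the 49 genes was called higher, Ddost (log2 fold change 0.218, adjusted p = 0.0272, and 0.224, adjusted p = 0.0424). The cause was not tested. With a library left out, 31 (without Prmt1-null replicate 2) to 340 genes (without Control replicate 3) were called in the whole table and 0 of the 49. The number of the 49 whose libraries did not overlap was 14 to 24 higher and 1 to 3 lower, where 14.4% to 17.0% and 13.5% to 16.3% of all genes were in that order. The medians ran from 0.05 to 0.095 for all 49 genes, from −0.015 to 0.02 for COPII and from 0.07 to 0.125 for the oligosaccharyltransferase. Copa, Copb2, Copg1, Sec23a, Sec24a, Sec24c, Spcs1 and Srp14 changed sign with some library left out. Same-numbered libraries of the genotypes did not deviate together (correlations of −0.0716, 0.0482 and −0.0772), and they come from different mice. With the replicate block 151 genes were called in the whole table and 0 of the 49 genes. Sec61g had the lowest counts of the 49 genes, with 164 in its lowest library, and the largest SE (0.18). The part of depth in that spread was not tested.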
